A study of Rattus norvegicus with 9 samples.

Results

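The collagen chain genes were examined in cultured heart muscle cells of newborn rats (neonatal rat ventricular myocytes) after infection with 1 of 3 adenoviruses. They were taken as the genes whose symbol is Col, digits, a and digits, with at least 20 counts over all 9 libraries. Of 28935 genes in the count table, 43 have such a symbol and 40 reached that minimum. Of these 40, 36 had enough counts for a test. Just above the minimum were Col6a5 and Col25a1 with 31 counts each and Col10a1 with 42. Just below it were Col6a4 with 12, Col9a1 with 10 and Col23a1 with 1. Col4a3bp has a longer symbol and was left out, and Col6a3 and Col21a1 were not analysed here.

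The cells came from ventricles of newborn Sprague Dawley rats (1 or 2 days old) and grew in 3% serum for 48 h. All 9 libraries then had 48 h with virus in serum-free medium (8 µL of virus, 1 mL of medium), so no group was free of adenovirus. These volumes do not give the infectious dose of each virus. The 3 groups of 3 libraries carried a virus for GFP (green fluorescent protein, the control), for Nfya or for Nfe2l1. Nfya is the subunit of the transcription factor NF-Y that binds CCAAT in DNA, and Nfe2l1 is a stress-responsive factor that binds antioxidant response elements (AREs). Below, "with Nfya" and "with Nfe2l1" mean the libraries labelled so. The viral promoter is not given in the sources used here, and neither is whether replicates came from separate cultures, so p-values reflect only how far these libraries differ among themselves, which may be technical.

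Collagens are proteins of 3 chains wound into a triple helix outside the cell. Fibrillar collagens, with types I and III foremost in the heart, form the cable-like fibres that bear tension between muscle bundles, and type V and XI chains limit how thick those fibres grow. Type IV collagen is the sheet of the basement membrane around each myocyte and vessel, type VI forms beaded filaments beside it, and FACIT collagens sit on the surface of fibrils. In the heart, fibroblasts are the chief makers of fibrillar collagen, while basement membrane chains are also made by other cells.

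Libraries held 5712123 to 7310774 counts. Levels are given as CPM, which are counts scaled to a common library size by TMM, a correction for differences in composition, and levels of single genes are compared with each other per length, as RPKM (the authors' values, divided by library total and gene length). Sums and shares over collagen classes are of counts, with no correction for length. The transcripts of Nfya and Nfe2l1 themselves differed little between the groups. Nfya lay between 77.7 and 81.7 CPM with GFP, 88.1 and 89.5 with Nfya and 90.3 and 94.6 with Nfe2l1, and Nfe2l1 between 234 and 246, 217 and 227, and 232 and 244. Nfya was thus higher in both factor groups, by 0.15 ± 0.04 and 0.20 ± 0.04 on the log2 scale (SE, adjusted p = 0.00926 and 2.06e-04), and Nfe2l1 gave -0.01 ± 0.03 in the libraries labelled Nfe2l1 (adjusted p = 0.856), so these counts do not check the labels. Summed over 9 cardiomyocyte markers, the level was between 3041 and 3378 CPM with GFP, between 3267 and 3323 with Nfya and between 2935 and 3238 with Nfe2l1. Summed over 9 fibroblast markers, it was between 416 and 425, between 821 and 839 and between 680 and 683 CPM, so these cultures held fibroblast transcripts besides those of myocytes. In such bulk RNA, more cells of a type and more RNA per cell cannot be told apart.

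In both comparisons with GFP, most collagen chains rose. With Nfya, 23 of the 36 tested chains were higher and 10 lower, against 24.3% higher and 27.9% lower among all 14151 genes tested. That is 63.9% higher and 27.8% lower, and the share of lower chains lay near that of all genes. The median log2 fold change was 0.57 over the chains and -0.02 over all genes. With Nfe2l1, 21 chains (58.3%) were higher and 9 lower, against 28.9% and 29.7% of all genes, with a median of 0.21 beside -0.01. Both comparisons use the same GFP libraries. Groups without overlap were frequent over all genes. With Nfya, 23 chains lay above GFP in every library and 9 below, against 4025 and 4694 of the 14151 genes. With Nfe2l1 the counts were 20 and 9, against 4487 and 4574. Between the factor viruses, 24 chains lay wholly higher with Nfya and 3 wholly lower, against 4294 and 4202.

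Against GFP, changes of at least 2-fold were more frequent among the chains than among all genes. With Nfya, 11 of the 36 tested chains rose and 5 fell that far, against 6.47% and 3.4% of all genes. Col1a2 is among those 5, and its call was lost when some single libraries were left out (below). With Nfe2l1 the counts were 9 and 5 of 36, against 7.14% and 5.07%. Between the factor viruses, 21 of the 36 chains were higher with Nfya and 2 were higher with Nfe2l1 (Col7a1 and Col17a1), against 25.2% and 25.4% of all genes. Of these, 2 chains, Col6a6 and Col8a2, were at least 2-fold higher with Nfya and none was 2-fold lower, where all genes gave 3.23% and 3.54%.

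**Figure D1:**
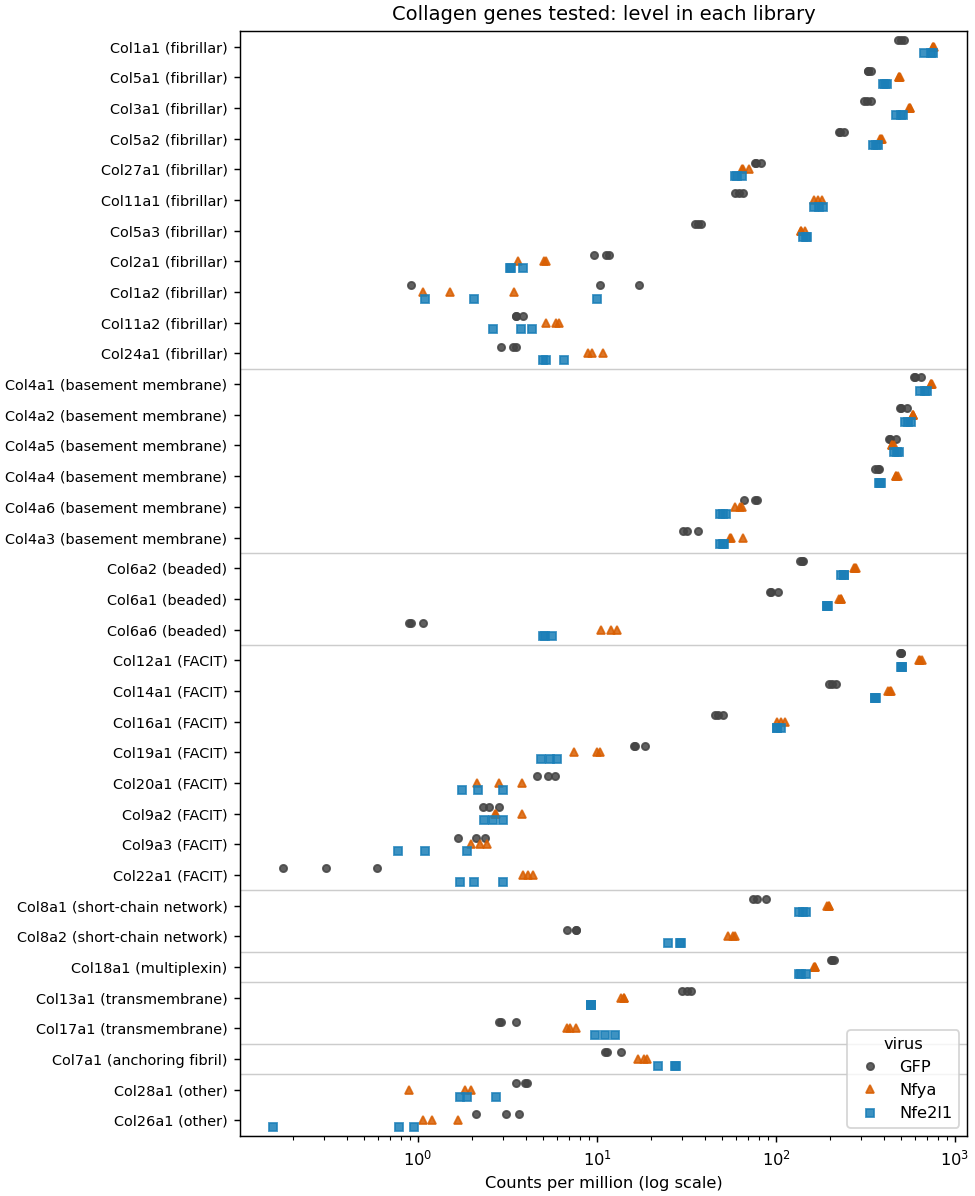
Level of each of the 36 tested collagen genes in each of the 9 libraries, in CPM on a log scale, grouped by collagen class (grey circles GFP, orange triangles Nfya, blue squares Nfe2l1). Col6a6 and Col8a2 stand apart in all 3 groups, while the groups overlap for Col1a2 and Col9a2.

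Summed over all 40 genes, collagen stood at 4995 ± 112 CPM with GFP (SD, n = 3), 7133 ± 44.3 with Nfya and 6320 ± 153 with Nfe2l1. The lowest Nfya library (7082) lay above the highest Nfe2l1 library (6442), which lay above the highest GFP library (5124). Collagen made up 0.498% ± 0.009 of all counts with GFP, 0.719% ± 0.005 with Nfya and 0.629% ± 0.009 with Nfe2l1. Sums have no test here, since exact tests of 3 against 3 libraries cannot go below p = 0.1.

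The makeup of the collagen counts differed between the groups. Basement membrane chains were 40.8% ± 0.652 of collagen counts with GFP (SD, n = 3), 33.1% ± 0.058 with Nfya and 34.4% ± 0.307 with Nfe2l1. Fibrillar chains were 31.8% ± 0.187, 36.3% ± 0.082 and 37.5% ± 0.317 of collagen counts. So basement membrane chains had the larger share of these counts with GFP and fibrillar chains had it with either factor virus. The fibrillar counts include the Col1a2 row, with 308 counts in all beside 38962 for its partner Col1a1. Whether that row measures its transcript in full was not tested, so the order of the 2 classes holds for these counts only. The beaded class, here without Col6a3, went from 4.74% with GFP to 7.26% with Nfya and 6.89% with Nfe2l1. The short-chain class went from 1.77% to 3.55% and 2.68%. The FACIT share was between 15.2% and 15.9% with GFP, 16.6% and 17.0% with Nfya and 15.2% and 16.0% with Nfe2l1. Every Nfya library thus lay above all others, and the Nfe2l1 libraries overlapped GFP.

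**Figure D2:**
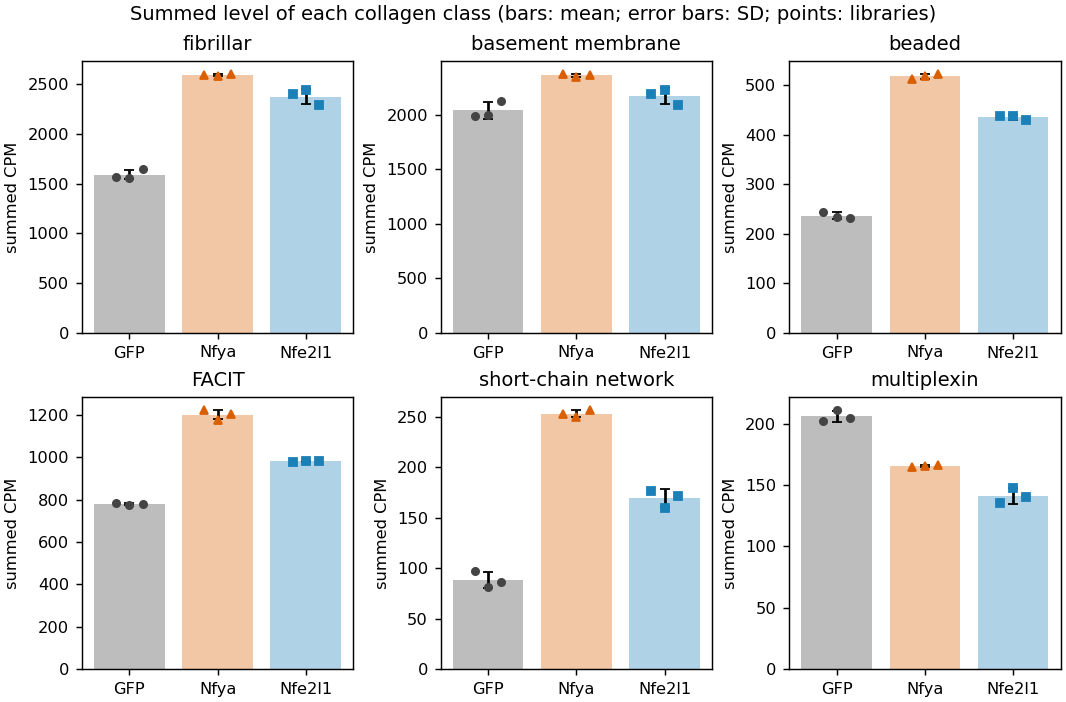
Summed level of 6 collagen classes in CPM, with bars for the group mean, error bars for the SD over 3 libraries and a point for each library. Fibrillar, beaded, FACIT and short-chain sums lay higher with either factor virus than with GFP in every library, while the multiplexin sum lay lower.

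The order of the chains per length differed too. With GFP the highest was Col4a2 at 103 ± 4.48 RPKM, followed by Col4a1 at 92.7 ± 4.23, Col1a1 at 85.8 ± 3.15, Col4a5 at 68.4 ± 3.09 and Col3a1 at 67.7 ± 2.55 (SD, n = 3). Col4a5 and Col3a1 lay within their spread of each other. With Nfya the order was Col1a1 at 131 ± 1.23 RPKM, Col4a2 at 119 ± 0.458, Col3a1 at 119 ± 0.845 and Col4a1 at 113 ± 0.308, with Col4a2 and Col3a1 inside each other's spread. With Nfe2l1 it was Col1a1 at 123 ± 6.41, Col4a2 at 110.4 ± 3.44, Col3a1 at 103 ± 3.81 and Col4a1 at 102 ± 4.17, the last pair again inside their spread.

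The fibrillar class held 11 tested chains. With Nfya 8 rose and 3 fell (median log2 fold change 0.66), with Nfe2l1 7 rose and 2 fell (median 0.52), and 5 were higher with Nfya than with Nfe2l1 and none lower (median 0.13). That is 72.7% higher and 27.3% lower with Nfya, beside 24.3% and 27.9% of all genes, so the share that fell was near theirs. The 3 that fell include Col1a2, whose call was lost when some single libraries were left out (below). With Nfe2l1 it is 63.6% and 18.2%, beside 28.9% and 29.7%. Between the factor viruses 45.5% were higher with Nfya, beside 25.2%. Type I and III chains, the bulk of cardiac fibres, included Col1a1 and Col3a1, each higher with both factor viruses, and the type V and XI chains that join those fibres held the widest rise of the class, that of Col5a3.

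Col1a1, the α1 chain of type I collagen, was at 500.0, 480.2 and 521 CPM with GFP, 757, 764 and 749 with Nfya and 733, 753 and 669 with Nfe2l1. Both factor groups lay wholly above GFP and overlapped each other. Against GFP it rose 1.51-fold with Nfya (log2 fold change 0.60 ± 0.04, SE, adjusted p = 5.85e-09) and 1.44-fold with Nfe2l1 (adjusted p = 2.12e-08), and the difference between the factor viruses was 0.08 ± 0.04 (adjusted p = 0.121).

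Col3a1, the single chain of type III collagen, was at 321, 311 and 338 CPM with GFP, 555, 564 and 560.1 with Nfya and 499.7, 509 and 466 with Nfe2l1. The 3 groups did not overlap. It rose 1.73-fold with Nfya (log2 fold change 0.79 ± 0.04, adjusted p = 6.72e-11) and 1.52-fold with Nfe2l1 (adjusted p = 1.15e-09), and was higher with Nfya than with Nfe2l1 by 0.19 ± 0.03. The ratio of Col1a1 to Col3a1 per length was therefore 1.27 ± 0.00654 with GFP, 1.11 ± 0.0108 with Nfya and 1.20 ± 0.0184 with Nfe2l1, with no overlap between the groups.

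The row named Col1a2, the partner chain of Col1a1 in type I collagen, held 308 counts in all. With GFP it stood at 2.12 ± 1.85 RPKM, beside 85.8 ± 3.15 for Col1a1, and whether the row measures the transcript of that chain in full was not tested. The counts were 6, 117 and 59 in the GFP libraries, 7, 10 and 23 with Nfya and 64, 7 and 15 with Nfe2l1, so replicates of 1 group were far apart and all groups overlapped. With Nfya it was called lower (log2 fold change -2.24 ± 0.79, adjusted p = 0.0264), but it was not called without GFP replicate 2 (-1.40, adjusted p = 0.211), GFP replicate 3 (adjusted p = 0.0508), Nfya replicate 1 (adjusted p = 0.0949) or Nfya replicate 2 (adjusted p = 0.0842), or with DESeq2 (adjusted p = 0.121) or limma-voom (adjusted p = 0.226). With replicate number as a block its adjusted p was 0.0525. It was not called in the authors' deposited table either (FDR 0.0889). With Nfe2l1 the value was -1.15 ± 0.68 (adjusted p = 0.162), and it was called lower without GFP replicate 1 (-1.69, adjusted p = 0.0109), without Nfe2l1 replicate 1 (-2.55, adjusted p = 0.0158) and with no filter on low counts (adjusted p = 0.0293). Without GFP replicate 2 it was -0.33. Without Nfe2l1 replicate 1 the difference between the factor viruses went from -1.08 to 0.35.

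Type V collagen sits in the core of type I fibres and sets their width. Col5a1, found in most of its forms, was at 327, 328 and 339 CPM with GFP, 488, 484 and 492 with Nfya and 406, 415 and 396 with Nfe2l1. Col5a2, its usual partner, was at 226, 227 and 239, 384, 380.2 and 390.1 and 363, 369 and 348 CPM. Col5a3, found in fewer tissues, was at 35.5, 36.4 and 38.1, 139, 138 and 145 and 141, 147 and 149.5 CPM. All 3 chains lay above GFP in every library of both factor groups, which overlapped each other for Col5a3 alone.

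Of the type V chains, Col5a3 changed most. It rose 3.83-fold with Nfya (log2 fold change 1.94 ± 0.05, adjusted p = 4.97e-14) and 3.98-fold with Nfe2l1 (1.99 ± 0.04, adjusted p = 2.09e-14). Col5a1 rose 1.47-fold and 1.23-fold, and Col5a2 1.67-fold and 1.56-fold, each with an adjusted p of at most 2.56e-07. Col5a1 was higher with Nfya than with Nfe2l1 by 0.27 ± 0.03, and Col5a2 by 0.10 ± 0.03, a call lost without Nfya replicate 3 (adjusted p = 0.0596). Per length, Col5a3 stood at 0.119 ± 0.00219 of Col5a1 with GFP (SD, n = 3), 0.309 ± 0.00620 with Nfya and 0.386 ± 0.0174 with Nfe2l1. Col5a1 stood at 0.990 ± 0.0120, 0.874 ± 0.00488 and 0.777 ± 0.00771 of Col5a2, so the ratio of these usual partners was lower with each factor virus, without overlap. Col5a2 lies beside Col3a1 on chromosome 9 in the RefSeq gene table of GRCr8, and both rose in both comparisons.

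Type XI collagen, best known from cartilage, forms mixed fibrils with type V. Col11a1 was at 65.6, 59.3 and 61.8 CPM with GFP, 179.6, 162 and 171 with Nfya and 173, 164 and 182 with Nfe2l1. Every factor library lay above every GFP library, and the factor groups overlapped. It rose 2.75-fold with Nfya (log2 fold change 1.46 ± 0.05, adjusted p = 4.53e-12) and 2.79-fold with Nfe2l1 (1.48 ± 0.05). Per length, Col11a2 was lower, with 0.575 ± 0.0287 RPKM beside 8.10 ± 0.420 for Col11a1 with GFP. It was at 3.52, 3.83 and 3.53, 6.12, 5.92 and 5.21 and 2.64, 3.75 and 4.35 CPM. It rose with Nfya alone by 0.66 ± 0.20 (adjusted p = 0.013, and adjusted p = 0.0706 with DESeq2), gave -0.01 ± 0.22 with Nfe2l1 (adjusted p = 0.981), and was higher with Nfya than with Nfe2l1 by 0.67 ± 0.20 (adjusted p = 0.0117), a call lost without Nfe2l1 replicate 1 (adjusted p = 0.0585).

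The bases before the transcription starts of Col5a3 and Col11a1 are printed because these were the fibrillar chains that rose at least 2-fold with both factor viruses. They are from RefSeq on the rat assembly GRCr8, a newer build than any named for the counts, and hold the 250 bases before each start. Capitals mark CCAAT and the ARE-type letters TGACNNNGC or TGAGNNNGC, searched on both strands. Col5a3 is at chr8:27625949-27626198 on the minus strand and Col11a1 at chr2:204508886-204509135 on the plus strand.
Col5a3: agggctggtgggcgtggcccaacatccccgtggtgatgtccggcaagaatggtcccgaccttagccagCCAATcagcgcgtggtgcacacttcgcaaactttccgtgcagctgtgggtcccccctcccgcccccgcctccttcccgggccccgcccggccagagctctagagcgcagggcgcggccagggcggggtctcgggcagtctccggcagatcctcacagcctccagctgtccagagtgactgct
Col11a1: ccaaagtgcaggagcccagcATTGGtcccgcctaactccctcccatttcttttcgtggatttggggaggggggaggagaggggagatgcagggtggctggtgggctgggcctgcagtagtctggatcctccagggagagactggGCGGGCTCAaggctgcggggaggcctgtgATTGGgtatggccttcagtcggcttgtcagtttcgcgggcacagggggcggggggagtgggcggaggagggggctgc
Col5a3 has 1 CCAAT, 182 bases before its start. Col11a1 has 2 on the other strand, 230 and 77 bases before its start, and 1 ARE-type match 106 bases before it.

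Col24a1, a minor fibrillar chain, was at 2.90, 3.39 and 3.53 CPM with GFP, 8.87, 9.40 and 10.9 with Nfya and 4.97, 5.16 and 6.53 with Nfe2l1. It rose in both, 2.96-fold and 1.71-fold, and was higher with Nfya than with Nfe2l1 by 0.80 ± 0.16 (adjusted p = 7.07e-04). Its 3 groups did not overlap.

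Of the falling fibrillar chains, Col2a1, the chain of cartilage type II collagen, was at 11.2, 9.58 and 11.7 CPM with GFP, 5.20, 3.64 and 5.06 with Nfya and 3.88, 3.29 and 3.27 with Nfe2l1. It fell by 1.21 ± 0.17 on the log2 scale with Nfya (adjusted p = 2.13e-05) and by 1.63 ± 0.18 with Nfe2l1 (adjusted p = 1.19e-06). Col27a1, another minor fibrillar chain, was at 77.1, 82.9 and 76.1, 70.7, 64.3 and 65.6 and 59.1, 64.3 and 60.4 CPM and fell by 0.24 ± 0.05 and 0.36 ± 0.05 on the log2 scale. Both lay below GFP in every factor library.

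**Figure D3:**
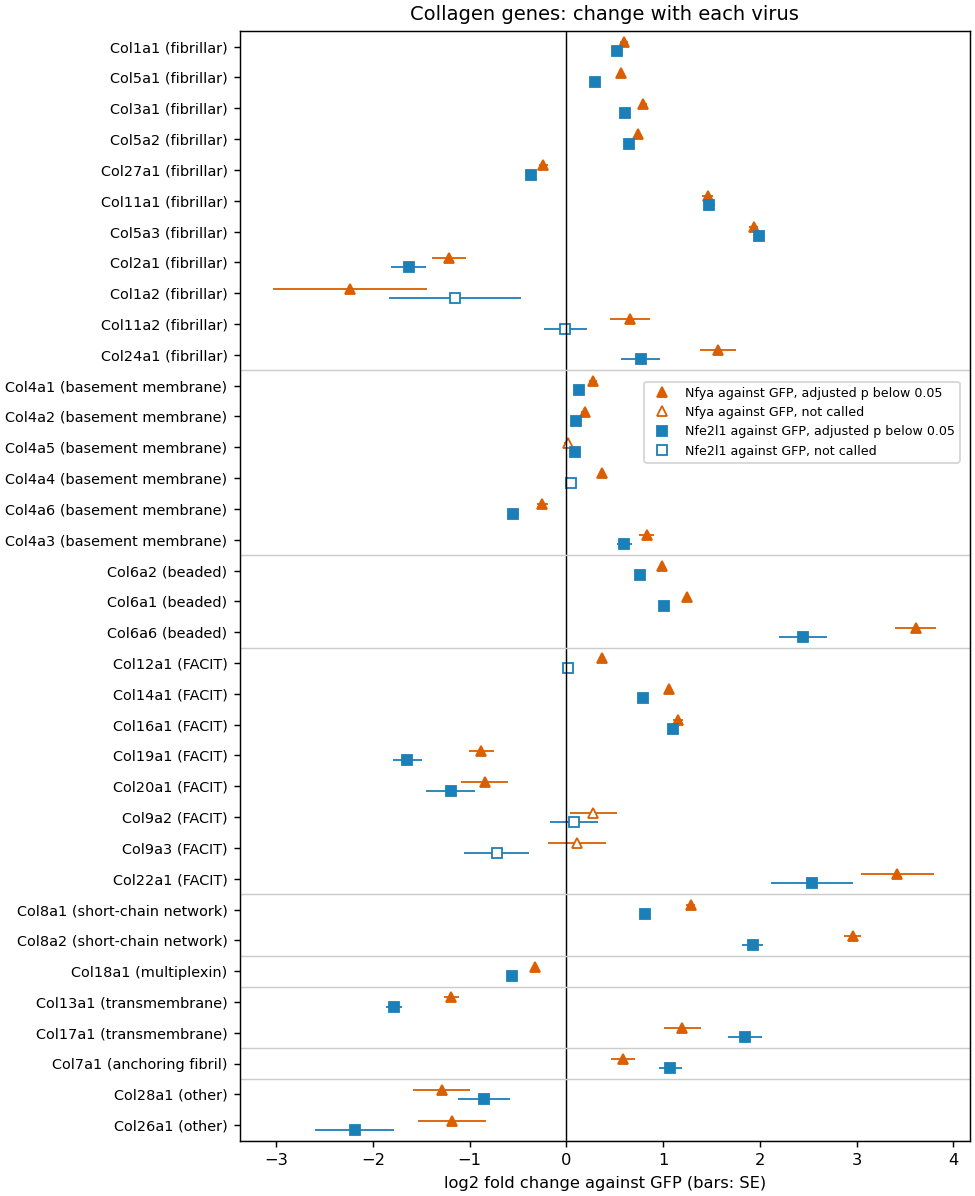
Log2 fold change of each tested collagen gene against GFP, with Nfya (orange triangles) and Nfe2l1 (blue squares), bars for the SE and open symbols where the adjusted p was 0.05 or more. With Nfya, Col6a6, Col22a1 and Col8a2 lie farthest to the right, and Col1a2 has the widest bar.

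No basement membrane chain changed by as much as 2-fold. Of 6 type IV chains, 4 rose and 1 fell with each factor virus, with median log2 fold changes of 0.23 with Nfya and 0.09 with Nfe2l1. With Nfya, 4 were higher than with Nfe2l1 and none lower (median 0.18), where all genes gave 25.2% and 25.4%. Against GFP, 66.7% were higher and 16.7% lower with each factor virus. All genes gave 24.3% and 27.9% with Nfya and 28.9% and 29.7% with Nfe2l1. Col4a1 and Col4a2, which join in 1 trimer in the common network of all basement membranes, had the highest levels per length with GFP.

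Col4a1 was at 590.2, 597 and 647 CPM with GFP, 739, 740.5 and 736 with Nfya and 678, 701 and 634 with Nfe2l1. Col4a2 was at 498, 494 and 539, 579, 582 and 584 and 549.6, 569 and 524 CPM. For both, the Nfya libraries lay above all others, and the Nfe2l1 libraries overlapped GFP. Col4a1 rose 1.21-fold with Nfya (log2 fold change 0.27 ± 0.04, adjusted p = 2.06e-05) and 1.10-fold with Nfe2l1 (0.14 ± 0.04, adjusted p = 0.00718). Col4a2 rose 1.14-fold with Nfya (adjusted p = 3.39e-04) and 1.07-fold with Nfe2l1 (0.10 ± 0.04, adjusted p = 0.0236), the last call being lost without GFP replicate 1 (adjusted p = 0.0811), GFP replicate 2 (adjusted p = 0.0915) or Nfe2l1 replicate 2 (adjusted p = 0.0984) and with the replicate block (adjusted p = 0.0515). Col4a1 stood at 0.899 ± 0.00895 of Col4a2 per length with GFP, 0.953 ± 0.00594 with Nfya and 0.920 ± 0.0102 with Nfe2l1. The groups did not overlap, yet the ratio moved little beside those of other pairs.

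Col1a1, Col4a2, Col4a1 and Col3a1 were the only members with over 0.5 counts per base of gene length in a library on average (0.743, 0.725, 0.671 and 0.633). Where a ceiling of 1.6 counts per base was assumed and undone before the fit, their log2 fold changes with Nfya became 0.82, 0.28, 0.38 and 1.02, and those with Nfe2l1 0.72, 0.16, 0.20 and 0.77. Whether dense coverage lowers these values was not tested.

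Col4a1 and Col4a2 lie head to head, with starts 77 bases apart on chromosome 16 of GRCr8 and opposite strands. The 76 bases between the starts are printed since both genes are read outward from them, on the strand of Col4a1, at chr16:84885521-84885596.
Col4a1 and Col4a2: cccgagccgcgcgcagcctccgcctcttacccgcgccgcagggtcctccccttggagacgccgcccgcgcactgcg
No CCAAT, TGACNNNGC or TGAGNNNGC lies in this stretch, and G and C make up 78.9% of it, beside a median of 51.2% over the 250 bases before the starts of all 33469 windows in the table. In the wider windows, Col4a1 has a CCAAT 170 bases before its start and another at base 25 after it. Col4a2 has a CCAAT 105 bases before its start and an ARE-type match 129 bases before it. The 2 windows share 176 bases, and this CCAAT of Col4a2 is the same site as the one after the start of Col4a1. Col4a3 and Col4a4 also lie head to head, with starts 413 bases apart on chromosome 9, and Col4a5 and Col4a6 with starts 1415 bases apart on chromosome X.

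The remaining type IV chains form networks of fewer tissues, such as the kidney filter. Col4a3 was at 32.0, 36.6 and 30.4 CPM with GFP, 65.6, 55.1 and 56.1 with Nfya and 50.6, 51.5 and 48.7 with Nfe2l1. Col4a4 was at 357, 370.0 and 377, 471, 469 and 479 and 378, 386 and 379 CPM. The 3 groups did not overlap for either chain. Col4a3 rose 1.78-fold with Nfya (log2 fold change 0.83 ± 0.08) and 1.51-fold with Nfe2l1 (0.60 ± 0.08), with adjusted p-values of 1.91e-07 and 7.81e-06. Its excess with Nfya over Nfe2l1 (0.23 ± 0.07, adjusted p = 0.0099) was not called without Nfya replicate 1 (adjusted p = 0.0717). Col4a4 rose with Nfya by 0.36 ± 0.03 (adjusted p = 2.18e-08) and gave 0.05 ± 0.03 with Nfe2l1 (adjusted p = 0.151). Per length, Col4a3 stood at 0.147 ± 0.0149 of Col4a4 with GFP, 0.204 ± 0.0209 with Nfya and 0.216 ± 0.00487 with Nfe2l1.

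Col4a5 was at 436, 427 and 469 CPM with GFP, 453, 444 and 447 with Nfya and 486, 474 and 455 with Nfe2l1. Col4a6 was at 76.1, 78.1 and 66.4, 64.5, 59.3 and 63.0 and 52.3, 48.8 and 50.5 CPM. This pair parted. Col4a5 gave 0.01 ± 0.04 with Nfya (adjusted p = 0.768) and 0.09 ± 0.04 with Nfe2l1 (adjusted p = 0.0452), a call lost when any single library other than GFP replicate 3 or Nfe2l1 replicate 3 was left out (edgeR adjusted p between 0.0597 and 0.162) and with the replicate block (adjusted p = 0.0792). Col4a6 fell by 0.25 ± 0.06 on the log2 scale with Nfya (adjusted p = 0.00166) and by 0.55 ± 0.06 with Nfe2l1 (adjusted p = 8.77e-07), and was higher with Nfya than with Nfe2l1 by 0.30 ± 0.06. The ratio of Col4a5 to Col4a6 per length was 4.62 ± 0.653 with GFP, 5.47 ± 0.189 with Nfya, overlapping GFP, and 7.09 ± 0.267 with Nfe2l1.

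The beaded class, type VI collagen, rose as a whole among its tested chains, 3 of 3 with each factor virus and 3 of 3 higher with Nfya than with Nfe2l1. Of all genes, 24.3% rose with Nfya, 28.9% rose with Nfe2l1 and 25.2% were higher with Nfya than with Nfe2l1. The median log2 fold change was 1.25 with Nfya and 1.01 with Nfe2l1. Col6a1 and Col6a2 each give 1 chain to the common type VI trimer, and Col6a6 can stand in for the remaining chain. In the GRCr8 gene table, Col6a1 and Col6a2 are neighbours on chromosome 20, and Col6a5 and Col6a6 on chromosome 8.

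Col6a1 was at 102, 92.9 and 93.6 CPM with GFP, 226, 229 and 230.1 with Nfya and 194, 193 and 193 with Nfe2l1. Col6a2 was at 142, 139 and 137, 273, 277 and 280.4 and 239, 239 and 231 CPM. Col6a6 was at 0.917, 0.885 and 1.06, 11.9, 12.9 and 10.6 and 5.12, 5.01 and 5.58 CPM. For each chain the GFP libraries were lowest, the Nfe2l1 libraries intermediate and the Nfya libraries highest, with no overlap. Col6a1 rose 2.37-fold with Nfya (log2 fold change 1.25 ± 0.04, adjusted p = 2.91e-13) and 2.01-fold with Nfe2l1 (1.01 ± 0.04, adjusted p = 2.44e-12). Col6a2 rose 1.99-fold and 1.69-fold. Col6a6 rose 12.2-fold with Nfya (3.61 ± 0.21, adjusted p = 1.18e-09) and 5.44-fold with Nfe2l1 (2.44 ± 0.25, adjusted p = 4.18e-07), from 18 counts over the GFP libraries to 234 and 106.

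Col6a6 was higher with Nfya than with Nfe2l1 by 1.17 ± 0.15 (adjusted p = 8.19e-06), while Col6a1 and Col6a2 were higher by 0.24 ± 0.03 and 0.23 ± 0.03. Per length, Col6a6 stood at only 0.00451 ± 0.000558 of Col6a1 with GFP, 0.0234 ± 0.00237 with Nfya and 0.0123 ± 0.000735 with Nfe2l1. Col6a1 stood at 0.828 ± 0.0337 of Col6a2 with GFP, 0.990 ± 0.00584 with Nfya and 0.984 ± 0.0171 with Nfe2l1, and the factor groups overlapped near equal levels. Col6a5, too low to test, had 3 counts over the GFP libraries, 20 with Nfya and 8 with Nfe2l1.

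FACIT collagens attach to fibrils without forming fibres of their own. Of 8 tested, 4 rose and 2 fell with Nfya (median log2 fold change 0.32), and 3 rose and 2 fell with Nfe2l1 (median 0.05). Between the factor viruses, 5 were higher with Nfya and none lower (median 0.35), where all genes gave 25.2% and 25.4%. With Nfya, 50% were higher and 25% lower, beside 24.3% and 27.9% of all genes, so the share that fell was near theirs. The shares with Nfe2l1, 37.5% higher and 25% lower, lay near the 28.9% and 29.7% of all genes. The fibril-associated Col12a1 and Col14a1 hold most of the counts of the class.

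Col12a1, which links type I fibrils to their surroundings and is made where tissue bears load, was at 498, 496 and 501 CPM with GFP, 654, 631 and 638 with Nfya and 502, 509 and 503 with Nfe2l1. Col14a1, a regulator of early fibril growth, was at 216, 199 and 205, 432, 425 and 437 and 363, 357 and 356 CPM. Col12a1 rose with Nfya by 0.36 ± 0.03 (adjusted p = 9.25e-09) and gave 0.02 ± 0.03 with Nfe2l1 (adjusted p = 0.553), and its difference between the factor viruses was 0.34 ± 0.03 (adjusted p = 1.72e-08). Col14a1 rose 2.09-fold with Nfya (log2 fold change 1.06 ± 0.03, adjusted p = 4.88e-13) and 1.73-fold with Nfe2l1 (0.79 ± 0.03, adjusted p = 1.10e-11). Per length, Col14a1 stood at 0.817 ± 0.0337 of Col12a1 with GFP, 1.33 ± 0.0233 with Nfya and 1.40 ± 0.0229 with Nfe2l1, so the order of the pair was reversed with each factor virus.

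Col16a1, a FACIT chain of several tissues, was at 45.6, 50.7 and 47.5 CPM with GFP, 113, 102 and 107 with Nfya and 101, 101 and 107 with Nfe2l1. It rose 2.23-fold and 2.15-fold, and the factor groups overlapped. Col19a1, found in basement membrane zones and in developing muscle, moved the other way at 16.4, 18.6 and 16.1, 10.4, 7.43 and 9.97 and 5.43, 4.85 and 5.99 CPM. It fell by 0.88 ± 0.13 on the log2 scale with Nfya (adjusted p = 4.30e-05) and by 1.64 ± 0.15 with Nfe2l1 (adjusted p = 1.11e-07), with no overlap between any groups. Col20a1 was at 5.81, 5.31 and 4.59, 2.14, 3.79 and 2.83 and 2.17, 2.97 and 1.77 CPM and fell by 0.84 ± 0.24 and 1.20 ± 0.25, below GFP in every factor library.

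Col22a1, a chain of the junction between muscle and tendon, had among the widest rises from a low level, with 7 counts over the GFP libraries, 82 with Nfya and 45 with Nfe2l1. Its log2 fold changes were 3.42 ± 0.38 with Nfya (adjusted p = 1.41e-06) and 2.54 ± 0.43 with Nfe2l1 (adjusted p = 8.78e-05). All factor libraries lay above GFP, and its difference between the factor viruses (0.88 ± 0.25, adjusted p = 0.00866) was not called by DESeq2 (adjusted p = 0.0798). Of the type IX chains of cartilage, Col9a2 had 48, 61 and 54 counts with GFP, Nfya and Nfe2l1 and was not called in any comparison. Col9a3 had 39, 44 and 25 counts and was called between the factor viruses alone (0.83 ± 0.33, adjusted p = 0.0449), a call lost without any single library other than GFP replicate 1 and Nfe2l1 replicate 2 (edgeR adjusted p up to 0.173).

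Type VIII collagen, of the short-chain network class, builds the lattice under vessel endothelium and in the cornea. Its chains rose 2 of 2 with each factor virus, where 24.3% of all genes rose with Nfya and 28.9% with Nfe2l1. Both were higher with Nfya than with Nfe2l1, as were 25.2% of all genes. Col8a1 was at 88.4, 74.2 and 77.9 CPM with GFP, 198, 192 and 197 with Nfya and 146, 134 and 142 with Nfe2l1. Col8a2 was at 7.64, 6.78 and 7.59, 54.0, 57.8 and 59.2 and 29.3, 24.9 and 29.1 CPM. All groups were apart, with GFP lowest and Nfya highest. Col8a2 rose 7.77-fold with Nfya (log2 fold change 2.96 ± 0.09, adjusted p = 5.60e-13) and 3.79-fold with Nfe2l1 (1.92 ± 0.11, adjusted p = 4.00e-10), where Col8a1 rose 2.44-fold and 1.76-fold. The factor viruses differed by 1.03 ± 0.06 for Col8a2 and 0.47 ± 0.04 for Col8a1. Per length, Col8a2 stood at 0.0948 ± 0.00569 of Col8a1 with GFP, 0.301 ± 0.0168 with Nfya and 0.203 ± 0.0108 with Nfe2l1. Col10a1, of growth-plate cartilage, was too low to test, with 13, 12 and 17 counts with GFP, Nfya and Nfe2l1.

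**Figure D4:**
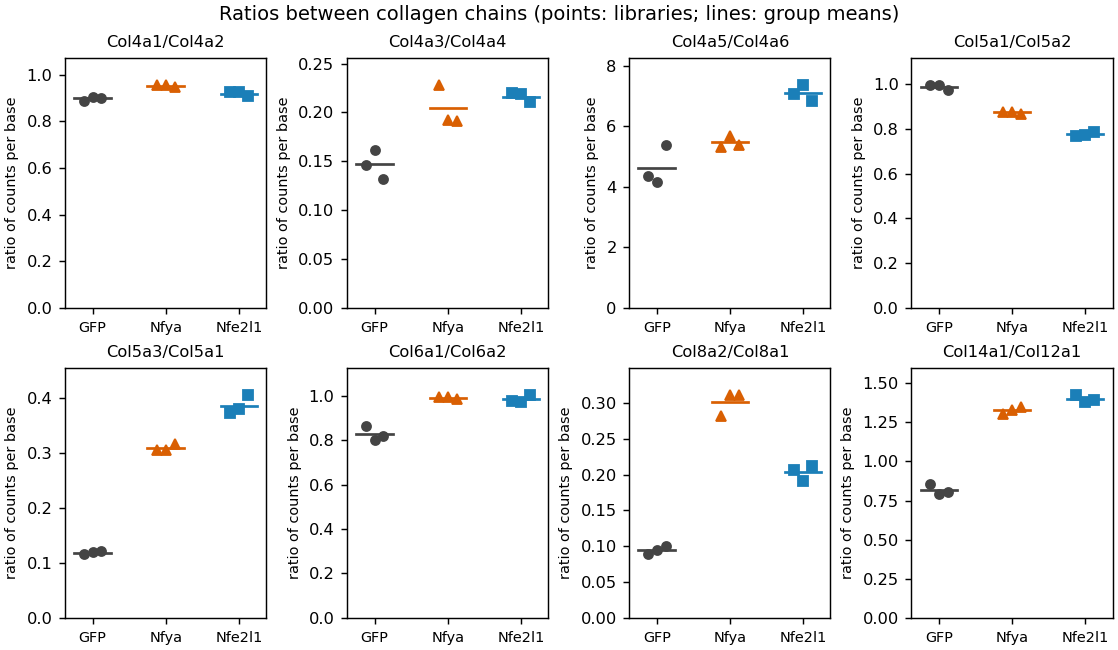
Ratio of counts per base of gene length for 8 pairs of collagen chains in each library, with a line at the group mean (grey circles GFP, orange triangles Nfya, blue squares Nfe2l1). Col5a3 to Col5a1, Col8a2 to Col8a1 and Col14a1 to Col12a1 lie higher in every factor library than in any GFP library, while Col4a1 to Col4a2 stays between 0.889 and 0.957.

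The 250 bases before the starts of Col6a6 and Col8a2 are printed because they were the only chains called at least 2-fold higher with Nfya than with Nfe2l1. Col6a6 is at chr8:115352162-115352411 on the minus strand and Col8a2 at chr5:143870519-143870768 on the plus strand of GRCr8, from RefSeq.
Col6a6: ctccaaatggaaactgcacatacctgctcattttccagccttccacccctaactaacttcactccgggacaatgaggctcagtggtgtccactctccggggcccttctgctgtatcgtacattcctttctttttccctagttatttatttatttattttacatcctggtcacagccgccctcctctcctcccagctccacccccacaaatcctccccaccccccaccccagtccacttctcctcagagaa
Col8a2: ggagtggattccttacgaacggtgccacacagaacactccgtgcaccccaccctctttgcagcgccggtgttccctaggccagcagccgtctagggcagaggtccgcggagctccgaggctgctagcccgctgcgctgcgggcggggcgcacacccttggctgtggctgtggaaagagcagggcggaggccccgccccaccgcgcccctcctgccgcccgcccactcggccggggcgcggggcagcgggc
Neither stretch has CCAAT, TGACNNNGC or TGAGNNNGC on either strand, so no letter is in capitals. Their G and C content was 51.6% for Col6a6 and 73.2% for Col8a2.

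RefSeq windows of 300 bases, from 250 before to 50 after a start, were found for 31 of the 40 members. CCAAT was in 10 of the 31 (32.3%), beside 39.6% of 27457 genes with a window of that length. The letters TGACNNNGC or TGAGNNNGC were in 14 of 31 (45.2%), beside 28.7%, and TATAAA on the sense strand in 4 (12.9%), beside 9.67%. Of the chains that rose with Nfya, 5 of 17 with a window had CCAAT (Col4a1, Col4a2, Col5a3, Col11a1 and Col17a1), as had 3 of the 9 that fell (Col1a2, Col20a1 and Col28a1). Col4a2 is counted only through a CCAAT that it shares with the window of Col4a1. Of those that rose with Nfe2l1, 9 of 16 had the ARE-type letters, among them Col6a1, Col5a2, Col16a1 and Col11a1, as had 3 of the 8 that fell (Col13a1, Col20a1 and Col26a1). The letters are a description of these windows and not of binding.

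The smaller classes split. Col18a1, the multiplexin of basement membranes whose end fragment is endostatin, was at 202, 211 and 204 CPM with GFP, 163, 165 and 164 with Nfya and 134, 147 and 138 with Nfe2l1. It fell by 0.33 ± 0.03 on the log2 scale with Nfya (adjusted p = 6.97e-07) and by 0.56 ± 0.03 with Nfe2l1 (adjusted p = 1.35e-09), and its groups did not overlap. The other multiplexin, Col15a1, did not pass the count filter used here, with 7 counts over the GFP libraries, 28 with Nfya and 26 with Nfe2l1. In the authors' deposited table it was higher with Nfya (logFC 1.92, FDR 0.00134).

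Of the transmembrane collagens, Col13a1, a chain of cell junctions and the neuromuscular synapse, was at 30.0, 33.6 and 32.0 CPM with GFP, 14.1, 13.7 and 14.1 with Nfya and 9.31, 9.23 and 9.25 with Nfe2l1. It fell by 1.19 ± 0.08 on the log2 scale with Nfya (adjusted p = 4.48e-09) and by 1.78 ± 0.09 with Nfe2l1 (adjusted p = 8.32e-11), and the groups stood well apart. Col17a1, known from the hemidesmosomes of skin, went the other way at 2.90, 3.54 and 2.83, 7.04, 6.83 and 7.59 and 9.78, 11.1 and 12.7 CPM. It rose 2.30-fold with Nfya and 3.60-fold with Nfe2l1, and was lower with Nfya than with Nfe2l1 by -0.65 on the log2 scale (adjusted p = 0.00151). Col25a1, a collagen of neurons, was too low to test, with 9, 19 and 3 counts with GFP, Nfya and Nfe2l1.

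Col7a1, the anchoring fibril chain that ties skin epithelium to its bed, was at 13.6, 11.4 and 11.1 CPM with GFP, 19.0, 18.4 and 17.0 with Nfya and 27.8, 27.2 and 21.8 with Nfe2l1. It rose 1.50-fold and 2.11-fold, and with Col17a1 it was the only chain called higher with Nfe2l1 than with Nfya (log2 difference -0.49 ± 0.10, adjusted p = 8.62e-04). Both chains are known from skin epithelium, and these cultures also held epicardial and mesothelial transcripts. The summed level of 7 such markers was between 56.7 and 62.7 CPM with GFP, 121 and 136 with Nfya and 146 and 160 with Nfe2l1. All 6 of these markers that were tested rose with each factor virus, where 24.3% of all genes rose with Nfya and 28.9% with Nfe2l1. Bnc1 had no count with GFP. Between the factor viruses, Upk1b and Msln were higher with Nfe2l1, and 4 of the 6 were not called. The part of these cells in the values was not tested.

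Col26a1 and Col28a1, outside these classes, had few counts and fell. Col26a1 had 57 counts with GFP, 26 with Nfya and 13 with Nfe2l1. It fell by 1.18 ± 0.35 on the log2 scale with Nfya (adjusted p = 0.0103, lost without GFP replicate 1 at adjusted p = 0.0672 and with DESeq2 at adjusted p = 0.0654) and by 2.19 ± 0.41 with Nfe2l1. Col28a1 had 73, 31 and 43 counts. It fell by 1.29 ± 0.29 with Nfya and by 0.85 ± 0.27 with Nfe2l1, the last call being lost without Nfe2l1 replicate 1 (adjusted p = 0.0666) and with DESeq2 (adjusted p = 0.0789).

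Genes that modify, assemble, bind and cut collagen mostly rose with Nfya. Of 53 such genes tested, 39 rose and 2 fell with Nfya (median log2 fold change 0.48), 31 rose and 7 fell with Nfe2l1 (median 0.24), and 32 were higher and 12 lower with Nfya than with Nfe2l1. That is 73.6% higher and 3.77% lower with Nfya, beside 24.3% and 27.9% of all genes, and 58.5% and 13.2% with Nfe2l1, beside 28.9% and 29.7%. Crtap, Mia3, Pcolce2 and Tnxb, also on the list, were not analysed here.

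Hydroxylation of proline and lysine steadies the triple helix and prepares cross-links. Of its 14 genes, 10 rose and 2 fell with Nfya and 5 rose and 3 fell with Nfe2l1. The shares with Nfe2l1 (35.7% and 21.4%) lay near those of all genes. P3h3, a prolyl 3-hydroxylase family member, rose by 1.23 ± 0.04 and 1.05 ± 0.05 on the log2 scale, and P3h4, its partner in a lysine-modifying complex, fell by 0.93 ± 0.05 and 1.41 ± 0.06. Plod2, which hydroxylates lysines of the chain ends, rose by 0.65 ± 0.03 and 0.26 ± 0.03. In folding and export, 4 of 8 rose and none fell with Nfya, and 5 rose and 1 fell with Nfe2l1. Creb3l1, a transcription factor that drives collagen secretion genes, rose by 1.15 ± 0.04 and 0.89 ± 0.04. Of 6 genes of propeptide removal, 5 rose and none fell with Nfya, and 3 rose and 1 fell with Nfe2l1. Adamts2, which cuts the amino end of procollagen, rose by 1.81 ± 0.04 and 1.29 ± 0.04.

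Lysyl oxidases cross-link the finished fibres. All 5 tested rose with Nfya and 4 with Nfe2l1. Lox rose by 1.39 ± 0.04 with Nfya and 0.83 ± 0.04 with Nfe2l1 on the log2 scale, and Loxl1 rose 3.04-fold and 3.91-fold. Of 8 genes for proteins that bind fibrils, 6 rose and none fell with Nfya, and 7 rose and 1 fell with Nfe2l1. Among them were Prelp with 2.10 ± 0.05 and 1.54 ± 0.05 and Lum with 2.25 ± 0.07 and 1.34 ± 0.08, leucine-rich proteoglycans of the fibril surface. Of 8 collagen receptors, 5 rose and none fell with Nfya, and 3 rose and 1 fell with Nfe2l1, where the share that rose (37.5%) was near that of all genes. The receptor tyrosine kinase Ddr2 rose by 1.49 ± 0.05 and 1.39 ± 0.05, and the uptake receptor Mrc2 by 2.04 ± 0.08 and 1.97 ± 0.08. Proteases that cut collagen rose too, 4 of 4 with each factor virus, among them Mmp14 with 1.15 ± 0.03 and 0.90 ± 0.04 and Mmp2 with 0.92 ± 0.04 and 0.81 ± 0.04.

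Fibroblast markers moved with the collagens. Of 9, 8 rose and 1 fell with Nfya, 7 rose and 1 fell with Nfe2l1, and 7 were higher with Nfya than with Nfe2l1 and none lower. That is 88.9% higher and 11.1% lower with Nfya, beside 24.3% and 27.9% of all genes. With Nfe2l1 it is 77.8% and 11.1%, beside 28.9% and 29.7%. No fibroblast marker was at 0 in any group, and Dcn, Lum and Ddr2 are also among the genes that bind collagen above. Smooth muscle and pericyte markers summed to between 973 and 985 CPM with GFP, 1084 and 1105 with Nfya and 765 and 794 with Nfe2l1. Of 7 tested, 5 rose and 1 fell with Nfya and 2 rose and 3 fell with Nfe2l1. That is 71.4% and 14.3% with Nfya and 28.6% and 42.9% with Nfe2l1, where the share that rose was near that of all genes. Cspg4, at 432 CPM with GFP the highest of these markers, fell by 0.38 ± 0.03 and 0.88 ± 0.03 on the log2 scale, while Pdgfrb rose by 1.45 ± 0.07 and 0.81 ± 0.07. Endothelial markers summed to between 229 and 239, 222 and 230, and 238 and 268 CPM, yet most of them rose. Of 7 tested, 4 rose and 1 fell with Nfya (median log2 fold change 1.07) and 5 rose and 1 fell with Nfe2l1 (median 0.82). That is 57.1% and 14.3% with Nfya and 71.4% and 14.3% with Nfe2l1. Kdr, at 163 CPM with GFP the bulk of that sum, fell by 1.08 ± 0.04 and 0.86 ± 0.04, while Tek rose by 1.77 ± 0.08 and 1.87 ± 0.08 and Cdh5 by 1.42 ± 0.12 and 1.10 ± 0.12. Macrophage markers summed to between 62.7 and 79.7, 82.9 and 92.8, and 93.1 and 104 CPM, and of 6 tested 4 rose and 1 fell with Nfya and 3 rose and none fell with Nfe2l1. That is 66.7% and 16.7% with Nfya and 50% and 0% with Nfe2l1. S100b, a Schwann cell marker, rose by 1.00 ± 0.19 with Nfya and 2.42 ± 0.16 with Nfe2l1. The part of any of these cell types in the collagen results was not tested.

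The authors' own comparisons named nearly the same chains. In the authors' deposited table for Nfya, 24 of 37 members were higher and 9 lower at an FDR below 0.05, and all 32 called in both that table and the fit used here had the same direction. Col15a1, higher in that table, was not tested in the fit used here. In the authors' deposited table for Nfe2l1, 20 of 36 were higher and 9 lower, and all 29 called in both had the same direction.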

How the data were processed

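Stranded mRNA libraries of infected cells (9 in all, 3 per virus) were sequenced. The authors deposited whole-number counts per gene, RPKM values with gene lengths in bases (a column named Length), and an edgeR table for each factor virus against GFP. In those tables logFC and logCPM are log2 values, LR is a likelihood ratio score, and PValue and FDR are the p-value and adjusted p-value, per the file headers. Per the submitters' processing notes, the tools were featureCounts 1.6.0, edgeR 3.20.5 and FastQC 0.11.4, and the genome builds named are GRCm38, mm10 and rn6. How reads were aligned and whether counting used strand is not stated there.

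The deposited counts were tested with edgeR 4.0.16 (R 4.3.3, limma 3.58.1) by filterByExpr, TMM and the quasi-likelihood F test, fitting the 9 libraries together by group alone. Calls needed an adjusted p under 0.05 (Benjamini-Hochberg, 14151 genes). The SE of a log2 fold change was its size over the square root of F. CPM used TMM-scaled totals, and chain ratios used counts per base. The pipeline was tested on simulated data. Members and lists were chosen with earlier results of these data known. Values per library are given for called chains that reach a mean of 5 CPM in a group and for their partner chains, and the other members by counts. From each list of collagen-related genes, members with the smallest p were named. Alternatives were DESeq2 1.42.0, limma-voom, other scalings and filters, a stricter threshold, a replicate block and leaving out each library. Depth limits precision for chains with few counts. The summed level of Schwann cell markers is not reported here.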

Additional observations from a re-analysis of the deposited data

How the results depend on the processing

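The counts of collagen genes called higher and lower in the 3 comparisons stayed within 1.5 times of those reported under every alternative, as did the counts over all genes under the 18 alternatives that refit the data. Leaving out 1 library at a time gave 23 to 24 chains higher and 9 to 10 lower with Nfya, 19 to 22 and 9 to 10 with Nfe2l1, and 19 to 24 and 2 to 3 for Nfya against Nfe2l1. Of 108 values (36 chains in 3 comparisons), 86 were called, 69 of them under all 18 refits and 6 under the 17 that tested the chain. Of the 22 not called, 8 were called under at least 1 refit. Among these, Col4a2 was called higher with Nfya than with Nfe2l1 under 12 of the 18 refits and Col27a1 under 9. The rest were called under at most 3. Values not called that changed sign were Col9a2 with Nfe2l1 (-0.0085 to 0.16 as 1 library was left out, negative without Nfe2l1 replicate 3), Col11a2 with Nfe2l1 (0.026 with no filter and -0.17 to 0.18 as 1 library was left out, positive without GFP replicate 2 or Nfe2l1 replicate 1), Col1a2 between the factor viruses (-1.71 to 0.35, positive without Nfe2l1 replicate 1) and Col11a1 between them (0.0013 with a mean of at least 5 CPM, and -0.058 to 0.045, positive without GFP replicate 1 or 2, Nfya replicate 2 or Nfe2l1 replicate 3). The cause was not tested. Same-numbered libraries did not deviate together (correlations from -0.08 to 0.05), so no pairing by number was seen. These correlations weigh all tested genes alike, also those with few counts, and cannot exclude a pairing. With replicate number as a block, 23 chains were higher and 9 lower with Nfya and 19 and 9 with Nfe2l1, the calls lost being those of Col1a2 with Nfya and of Col4a2 and Col4a5 with Nfe2l1 (adjusted p = 0.0525, 0.0515 and 0.0792). Other scalings moved the median of all genes by at most 0.02. Calls were lost for chains with few counts (Col9a3, Col11a2, Col22a1, Col26a1 and Col28a1), for Col1a2, whose replicates were far apart, and for small differences of chains with many counts (Col4a2, Col4a3, Col4a5 and Col5a2).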
